A study of Arabidopsis thaliana with 2 samples.

Results

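The genes described here encode secreted proteins related to pathogenesis-related protein 1 (PR-1), members of the CAP superfamily, which is named after cysteine-rich secretory proteins, antigen 5 and PR-1. They are 10 Arabidopsis thaliana loci of this superfamily, chosen by family and by the readings of AT1G50060, higher without iron, and AT4G33730, lower without iron, on these same arrays. A probe set assigned to a single gene was found for 9 of the 10 loci, on an array with 22746 plant probe sets, and AT5G57625 was not analysed here. All 9 probe sets carry the plain suffix that marks probes designed for a single transcript.

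Pericycle cells of 7-day-old Columbia seedling roots were isolated by protoplasting and fluorescence sorting of the GFP reporter line J2661. Seedlings had 6 days on standard medium, followed by 24 h on medium lacking iron, in which 0.3 mM of the iron chelator ferrozine replaced the ferrous sulfate, or by 24 h on medium with iron. Reporter, ecotype and protoplasting were shared by both groups, and 1 reporter line was used. A single column of values per condition was analysed, labelled replicate 1 in each and taken as 1 array, so no difference has a replicate check, no p-value was computed, and words such as higher and lower refer to these 2 arrays alone.

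The CAP domain is a compact fold held together by disulfide bonds, and most plant members carry a signal peptide that sends them out of the cell. PR-1 itself is best known as a marker of salicylic acid-dependent defence, in which its transcript accumulates in infected leaves and in leaves distant from the infection. Peptides cut from the carboxyl end of CAP proteins, called CAPE peptides, act as signals in tomato and Arabidopsis. The pericycle is the outermost layer of the vascular cylinder, from which iron and other nutrients are loaded into the xylem.

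Of 8 pericycle and stele markers listed, 1 had a single-gene probe set, and it was bright on both arrays. AT4G30450, known as XPP and used as a marker of pericycle next to the xylem, read 51.5 without iron and 40.6 with iron, at the 99.96th percentile of plant probe sets without iron and the 99.98th with iron. The cortex markers AT1G62500 and AT1G09750 read 0.497 and 0.519 without iron, and 0.638 and 0.700 with iron. The endodermal marker GSO1 read 1.44 without iron and 1.46 with iron, at the 66.7th and 75.1st percentiles of plant probe sets. The root hair genes EXPA7 and EXPA18 read 0.820 and 0.802 without iron, and 1.06 and 0.993 with iron. The phloem gene OPS read 0.866 without iron and 0.768 with iron, and the root stem cell niche gene AGL42 0.507 and 0.631. No xylem marker of the 6 listed had a single-gene probe set. Values are linear intensities in arbitrary units, and readings of different probe sets also depend on their probes, so levels are compared within a gene. The median over plant probe sets was 0.866 without iron and 0.852 with iron. A probe set was treated as measured above the dim range when its higher reading reached 0.858, the median of all plant readings, which 52.2% of plant probe sets did. In these sorted cells, fewer cells of a type and less RNA per cell cannot be told apart.

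Of the 9 CAP genes, AT1G50060 gave by far the widest gap between the arrays, and AT4G33730 was the only gene above the dim range whose deposited reading was lower without iron. AT2G19970 read somewhat higher without iron, and the adjacent genes AT4G25780 and AT4G25790 read slightly higher as deposited. AT4G30320, AT5G66590, AT4G33710 and AT4G33720 stayed under 0.858 on both arrays. The differences of AT1G50060 and AT4G33730 were part of how the genes were chosen and are given as a description.

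AT1G50060, which encodes a secreted CAP protein, read 7.39 without iron and 2.19 with iron, a 3.37-fold higher reading. Both readings lay in the bright part of the array, at the 95.3rd percentile of plant probe sets without iron and the 85.7th with iron. The log2 difference was 1.75 as deposited. Bright probe sets in general read higher on the array without iron, and a lowess curve of difference on mean brightness stood at 0.61 for a probe set as bright as this one. Relative to that curve, the brightness-adjusted difference used below, AT1G50060 was 1.15 higher on the log2 scale, or 2.22-fold. Among 500 probe sets of like brightness, 1 had a larger relative difference and 498 a smaller one, and the robust SD of these 500 was 0.24, which measures how genes differ and carries no replicate error. Its q-value in the authors' deposited table was 0.000739, and 72.6% of the 500 like-bright probe sets passed 0.05 there.

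AT4G33730, described in Arabidopsis as the precursor of a salt-regulated CAPE peptide, read 0.808 without iron and 1.15 with iron, a 1.43-fold lower reading. The reading without iron was below the median of all plant readings and the reading with iron above it, so the gene entered the brighter range only through the array with iron. The log2 difference was -0.51 as deposited, where the curve stood at 0.11, and -0.62 after adjustment for brightness, or 1.54-fold lower. Only 2 of 500 probe sets of like brightness had a lower relative difference, with a robust SD of 0.14 among them. The q-value in the authors' deposited table was 0.0809. The authors' deposited table puts q under 0.05 for 11.4% of the 500 like-bright probe sets.

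**Figure D1:**
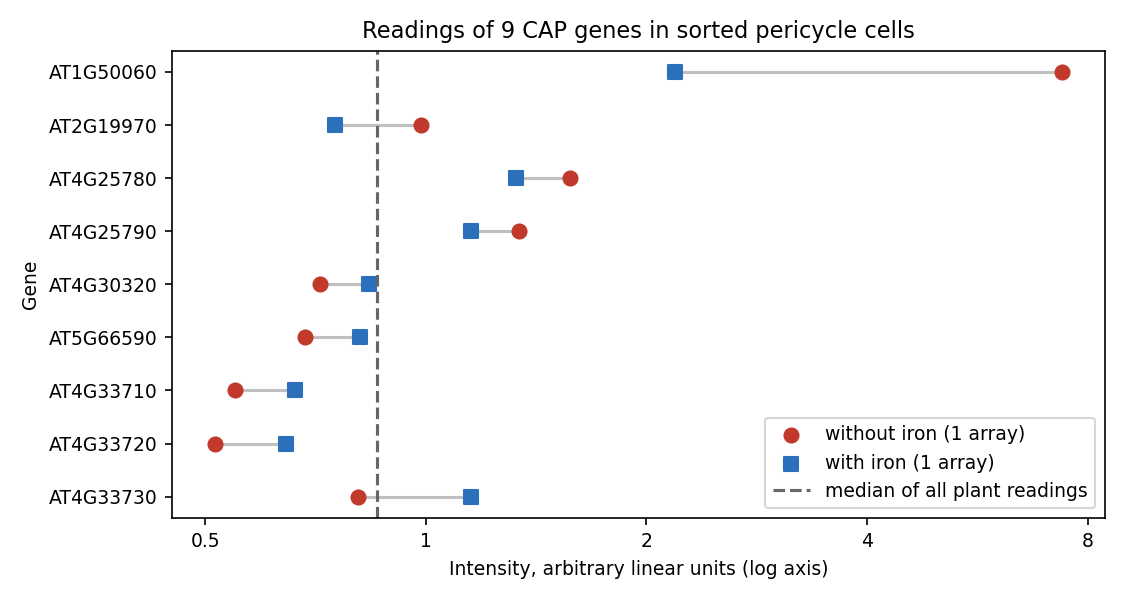
Intensity of each of the 9 CAP genes without iron (red circles) and with iron (blue squares), 1 array each, on a log axis in arbitrary linear units, with the median of all plant readings as a dashed line. AT1G50060 stands at 7.39 without iron and 2.19 with iron, while AT4G33730 crosses the dashed line in the opposite direction, at 0.808 and 1.15.

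AT2G19970 moved across the median line the other way. It read 0.985 without iron and 0.751 with iron, passing the line only through the array without iron, and its log2 difference was 0.39. Its brightness puts it where the curve is close to 0 (0.03), so the relative difference was nearly as large, 0.36, or 1.29-fold higher, and 3 of 500 probe sets of like brightness exceeded it (robust SD 0.14). Its q-value of 0.0112 in the authors' deposited table passed 0.05, as did 13.2% of the 500 probe sets of like brightness.

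AT4G25780 and AT4G25790 lie next to each other on chromosome 4 and gave near-equal differences. AT4G25780 read 1.57 without iron and 1.33 with iron, and AT4G25790 read 1.34 without iron and 1.15 with iron. Their log2 differences were 0.24 and 0.22. The curve stood higher than either difference, at 0.35 and 0.27, so adjusted for brightness they were at -0.11 and -0.06, within the robust SDs of 0.19 and 0.17. The direction of both genes therefore depends on the scaling. Their q-values in the authors' deposited table were 0.125 and 0.269.

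The other 4 CAP genes were dim on both arrays. AT4G30320 read 0.716 without iron and 0.835 with iron, the closest of them to the line of 0.858. AT5G66590 read 0.684 without iron and 0.813 with iron. Their log2 differences were -0.22 for AT4G30320 and -0.25 for AT5G66590, and -0.16 for each gene once adjusted for brightness, where the robust SD was 0.12. AT4G33710 read 0.549 without iron and 0.662 with iron, and AT4G33720 read 0.515 without iron and 0.644 with iron. Their log2 differences of -0.27 and -0.32 matched the curve, which left adjusted values of 0.01 and -0.01. The readings of AT4G33710 and AT4G33720 lay inside the range of the 27 probe sets for Bacillus transcripts, which no plant makes, at 0.389 to 0.635 without iron and 0.531 to 0.727 with iron. The other 7 CAP genes read above that range on both arrays.

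As deposited, 4 of the 9 genes read higher and 5 read lower in cells without iron (49.9% and 50.1% of all plant probe sets did). Their median log2 difference was -0.22, against -0.0023 over all plant probe sets. Adjusted for brightness 3 were higher and 6 lower (background 50.8% and 49.2%), and the median was -0.06, against 0.0024 over all plant probe sets. Of the 5 genes above the dim range, AT1G50060 was at least 1.5-fold higher without iron, as were 24.1% of the 11872 plant probe sets above that range, and none was at least 1.5-fold lower (background 0.295%). At 2-fold, which AT1G50060 also passed, the background was 2.07%. After adjustment for brightness AT1G50060 passed 1.5-fold upward (background 1.09%) and AT4G33730 passed it downward (background 1.48%). Since both genes helped to choose the list, these counts describe it and nothing is read from them.

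A q-value below 0.05 was listed in the authors' deposited table for 4 of the 9 genes, namely AT1G50060, AT2G19970, AT4G33710 and AT4G33720, against 61.3% of all plant probe sets. Of the 5 genes above the dim range 2 passed, against 44.5% of the probe sets there. For AT4G33710 and AT4G33720, 93.4% and 97.6% of the 500 probe sets of like brightness passed 0.05 as well by the authors' deposited table. Below the line of 0.858, 93.8% of plant probe sets read lower without iron, as did the 27 Bacillus probe sets, with a median log2 difference of -0.42. The 9 hybridisation controls, added in the laboratory, were all higher, with a median of 0.36. The part of these shifts in the differences as deposited was not tested beyond the relative values.

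**Figure D2:**
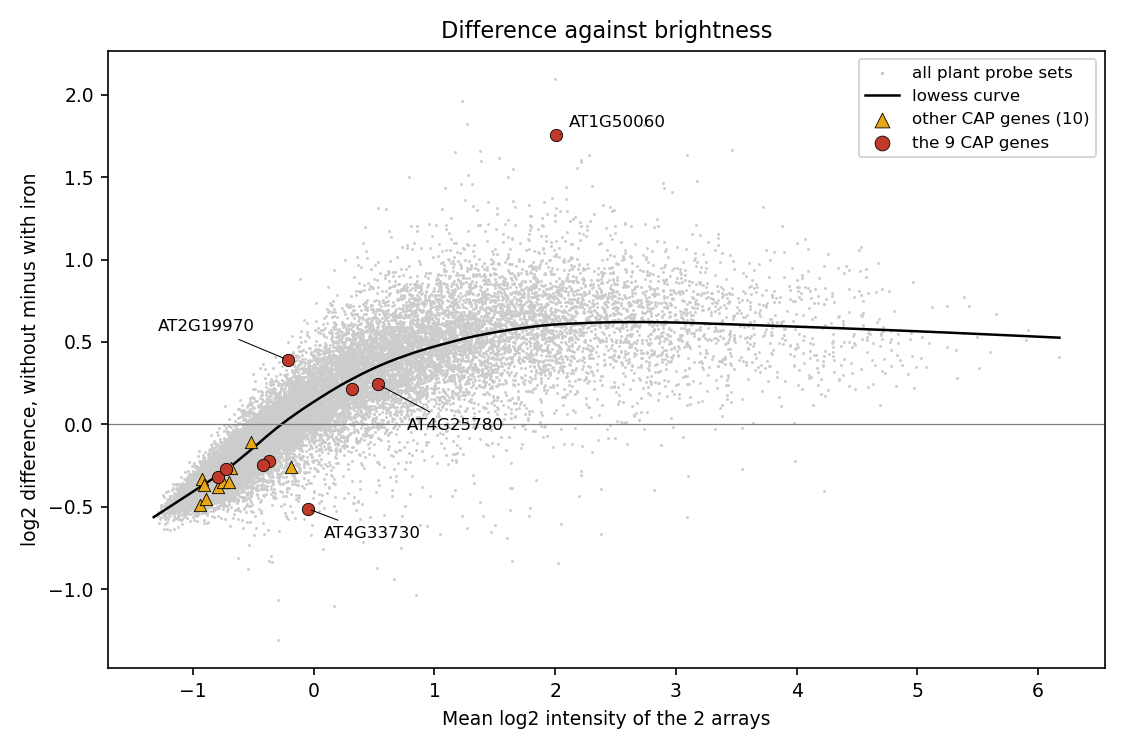
Log2 difference (without minus with iron) against mean log2 intensity of the 2 arrays for all plant probe sets (grey), the lowess curve (black), 10 other CAP genes (yellow triangles) and the 9 CAP genes (red circles). AT1G50060 lies 1.15 above the curve and AT4G33730 0.62 below it, and the CAP genes dim on both arrays lie within 0.16 of it.

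**Figure D3:**
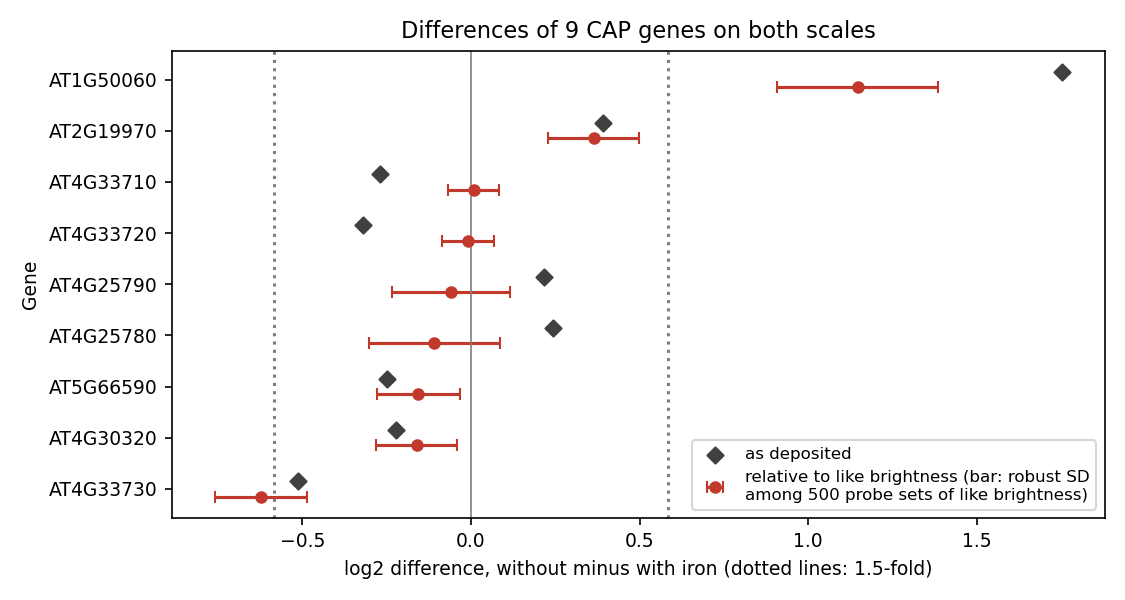
Log2 difference of the 9 CAP genes as deposited (diamonds) and relative to probe sets of like brightness (circles), where bars give the robust SD of the 500 like-bright probe sets and dotted lines mark 1.5-fold. AT4G25780 and AT4G25790 lie above 0 as deposited and below 0 on the relative scale, and AT4G33710 goes to 0.01 from a deposited -0.27. The other plotted genes, AT1G50060, AT2G19970 and AT4G33730 among them, keep their side.

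Of 12 further Arabidopsis CAP genes, 10 had a single-gene probe set. PR1 (AT2G14610) and the related basic protein gene PRB1 (AT2G14580) had none and were not analysed here. All 10 read lower without iron, by 0.11 to 0.49 on the log2 scale, with a median of -0.35. Of these, 9 stayed under 0.858 on both arrays, a range in which 93.8% of plant probe sets read lower. Adjusted for brightness 2 were higher and 8 lower (background 50.8% and 49.2%), between -0.30 and 0.05, with a median of -0.06, and none differed by 1.5-fold on either scale. Of the 10874 plant probe sets that stayed under 0.858, 0 were 1.5-fold higher and 18 lower as deposited. After adjustment 0 were either, so this count cannot set the 9 dim genes apart from other dim probe sets. AT4G31470 was the only one of the 10 CAP genes above the dim range and above the Bacillus probe sets. It read 0.804 without iron and 0.963 with iron, so it reached 0.858 only on the array with iron. Its log2 difference was -0.26, or -0.30 adjusted for brightness, with a q-value of 0.0875 in the authors' deposited table. AT2G19990, which carries the symbol PR-1-LIKE, read 0.438 without iron and 0.615 with iron, inside the Bacillus range. The authors' deposited table gave q-values under 0.05 for the 9 dim genes, as for 79.7% of all probe sets below the line.

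CAP genes often lie side by side. Among protein-coding genes in chromosome order, 12 of the 22 CAP genes considered form 5 runs of adjacent genes, and 7 of the 10 chosen loci are in such runs. On chromosome 1, AT1G50060 at 7.39 without iron and 2.19 with iron neighbours AT1G50050, which read 0.567 without iron and 0.683 with iron and had a brightness-adjusted difference of -0.01. On chromosome 2, AT2G19970 had an adjusted difference of 0.36, and its neighbours AT2G19980 and AT2G19990 were at -0.07 and -0.11. In the run of AT4G33710, AT4G33720 and AT4G33730 on chromosome 4, the adjusted differences were 0.01, -0.01 and -0.62. In each of these 3 runs a single gene reached 0.858 on an array, and its CAP neighbours stayed below it on both. AT2G19970 reached it only without iron and AT4G33730 only with iron, and AT1G50060 and AT4G33730 were chosen by their readings. The run of AT4G25780 and AT4G25790 went the other way, as each gene reached 0.858 on both arrays. Their adjusted differences were -0.11 and -0.06. Related genes can share probe sequence, and cross-hybridisation between the members of a run was not tested.

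**Figure D4:**
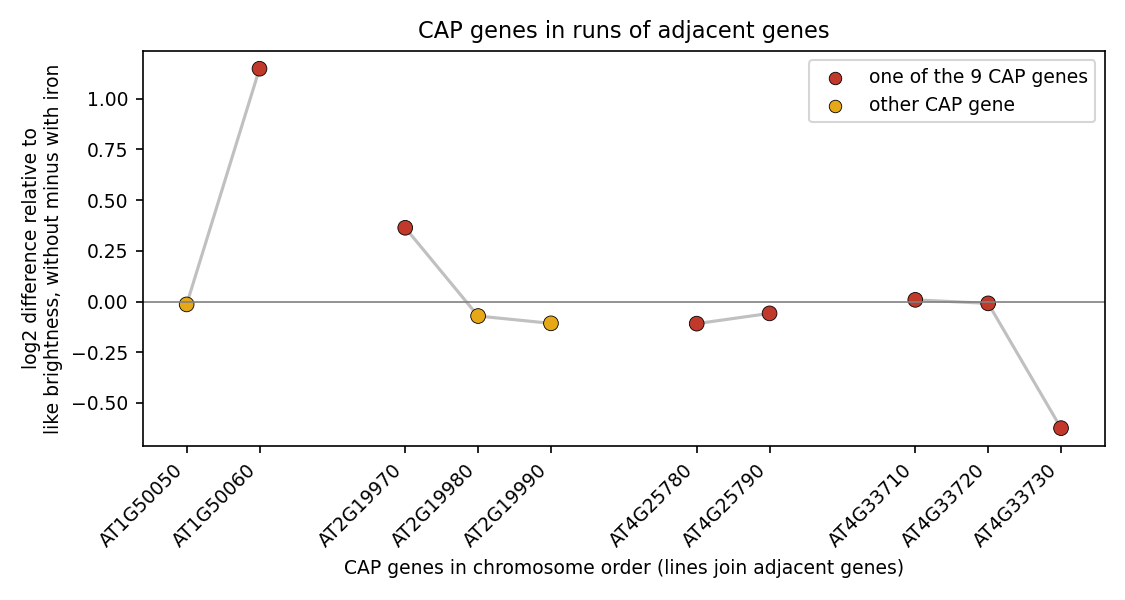
Log2 difference relative to probe sets of like brightness (without minus with iron) for CAP genes in runs of adjacent protein-coding genes, in chromosome order, with lines joining neighbours. AT1G50060 stands at 1.15, AT2G19970 at 0.36 and AT4G33730 at -0.62, and the other plotted genes lie between -0.11 and 0.01.

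Defence genes gave few values. Of 28 genes of the salicylic acid pathway, other pathogenesis-related families and the XCP proteases of the xylem, 3 had a single-gene probe set, and none reached 0.858. PDF1.2, a defensin gene used as a marker of jasmonate and ethylene signalling, read 0.447 without iron and 0.597 with iron. AT4G26120, an NPR1-related gene, read 0.461 without iron and 0.625 with iron. SAG101, which encodes a lipase-like partner of the immune regulator EDS1, read 0.613 without iron and 0.688 with iron. All 3 lay inside the range of the Bacillus probe sets, and adjusted for brightness they were at -0.03, -0.08 and 0.05. PR2, PR5, NPR1 and ICS1 had no single-gene probe set and were not analysed here.

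Markers of other root cell types with a single-gene probe set included the root hair expansins EXPA7 and EXPA18, 2 of the 7 epidermal markers listed. EXPA7 read 0.820 without iron and 1.06 with iron, and EXPA18 read 0.802 without iron and 0.993 with iron. Both reached 0.858 only on the array with iron. Adjusted for brightness they were at -0.47 and -0.36. The endodermal receptor kinase GSO1 was at -0.37 and the phloem gene OPS at 0.19. The cortex markers AT1G62500 and AT1G09750 were at -0.03 and -0.15 and the root stem cell niche gene AGL42 at 0.01. The pericycle marker AT4G30450, whose deposited reading was higher without iron, was at -0.20 with a robust SD of 0.25. The part of other cell types in the CAP gene differences was not tested.

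The genes whose pair of readings came closest to AT1G50060, among 13277 other genes with a single-gene probe set matched to the reference gene table and by distance between log2 readings, were AT1G53540, AT1G10410 and AT3G17110. AT1G53540, a small heat shock protein gene, read 8.27 without iron and 1.93 with iron, at a distance of 0.24. AT1G10410 read 7.79 without iron and 2.65 with iron, and AT3G17110 read 8.11 without iron and 2.67 with iron, at distances of 0.28 and 0.31. Closest to AT4G33730 were the plastid ribosomal protein gene rps14, with 0.855 without iron and 1.17 with iron, AT5G18970, with 0.867 and 1.15, and AT2G28410, with 0.869 and 1.15, at distances of 0.08, 0.10 and 0.10. Likeness over 2 arrays is a description of readings alone.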

How the data were processed

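The values are intensities per probe set, deposited by the authors as 1 column per sample; per the labels' protocols, RNA of sorted cells was amplified in successive rounds, biotin-labelled and hybridised to Affymetrix arrays. Amplification in rounds can widen differences between arrays. How they were background-corrected, summarised and scaled, and whether a column stands for several arrays, is not given in the sources used here; the number of arrays limits precision. Per the labels, the deposited q-values rate the difference between the conditions, by a test not stated there.

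Genes were named from the platform's probe table through gene IDs of the TAIR10.1 RefSeq gene table, giving 13513 single-gene probe sets. It was used for names and gene order only. Differences are log2(without iron) minus log2(with iron), without a pseudocount. Relative values subtract a lowess curve (fraction 0.2, statsmodels 0.14.6, Python 3.11.15) over all 22746 plant probe sets, and the robust SD uses 500 probe sets of like brightness. The procedure was tested on simulated data. Named genes were the chosen loci, all other CAP and defence genes with a single-gene probe set, and the 3 genes nearest in the readings to AT1G50060 and AT4G33730; neighbouring genes and markers were added for context. The members and lists were chosen with earlier results of these data known. Alternatives were pseudocounts of 1 and 16, quantile normalization, centring, an offset and scale factor, another lowess span, other filters, probe set types and thresholds.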

Additional observations from a re-analysis of the deposited data

How the results depend on the processing

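Over the 7 alternatives that alter the values, AT1G50060 read higher without iron in 7 (log2 difference 0.36 to 1.39). AT2G19970 was higher in 7 (0.02 to 0.41) and AT4G33730 lower in 7 (-0.88 to -0.03). The pseudocounts of 1 and 16 among these alternatives shrink a difference but cannot change its direction, so their part of each count was fixed beforehand. AT4G30320, AT5G66590 and AT4G33720, dim on both arrays, were also lower in 7 each, so a constant direction was not particular to the brighter genes. AT4G25780 and AT4G25790, higher as deposited, were lower in 5 of 7 each, which are all the alternatives able to change a direction. AT4G33710, lower as deposited, was higher in 3 of 7, all among those 5. Of the 5 CAP genes above the dim range, the count at least 1.5-fold higher was 1 as deposited and 0 with a pseudocount of 16, a value above every CAP gene reading, beside 2858 and 5 of all 11872 plant probe sets in that range. The count at least 1.5-fold lower there was 0 as deposited (35 of all). It stayed 0 with pseudocounts of 1 (4) and 16 (0) and with offset and scale removed (139). It was 1 (AT4G33730) after quantile normalization (193), centring (339) and lowess subtraction at fraction 0.2 (176) or 0.4 (167), where the background also rose. After centring, the 4 genes dim on both arrays also lay between -0.59 and -0.69. By the authors' deposited table, 2 CAP genes above the dim range passed q = 0.05 (44.5% of all probe sets there) and 1 passed 0.01. The latter was AT1G50060, whose reading helped to choose the list, and the share of all probe sets at 0.01 was not counted. The median of the other CAP genes (-0.35) became -0.129 and -0.0127 with pseudocounts of 1 and 16, -0.0696 after quantile normalization, -0.715 after centring, -0.0512 with offset and scale removed, and -0.0648 and -0.0678 with the lowess curve at 0.2 and 0.4. The defence median (-0.42) became, in the same order, -0.142, -0.0131, -0.0366, -0.784, 0.00607, -0.0315 and -0.0313. At the stricter filter these 2 lists had no gene left, and AT1G50060 was the only one of the chosen CAP genes left. Centring subtracts 0.37 from every difference, including those of dim genes. That value is the median of the 11872 probe sets above the dim range, whereas the median below that range was -0.28. Readings near the Bacillus range are limited by background. No paired analysis was possible because each condition has 1 column of values.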

Other observations

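Genes that flank the CAP loci were also read. Within 3 protein-coding genes on either side of each of the 10 loci lie 39 genes outside the CAP family, of which 16 had a single-gene probe set and 11 reached 0.858 on an array. As deposited, 4 of the 11 were 1.5-fold or more higher without iron (background 24.1%) and none was 1.5-fold lower (background 0.295%). Adjusted for brightness none of the 11 differed by 1.5-fold (background 1.09% higher and 1.48% lower). Their median was 0.08 and their range was -0.41 to 0.50. Beside AT1G50060, the flanking gene AT1G50040 read 0.790 without iron and 0.860 with iron, and AT1G50110 read 0.832 without iron and 0.848 with iron. Beside AT4G33730, AT4G33740 read 2.29 without iron and 1.32 with iron, 0.37 higher after adjustment for brightness, where AT4G33730 was at -0.62. These flanking genes were singled out after their values were seen.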
